A study of Homo sapiens and Mus musculus with 19 samples.

Results

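The E2F transcription factors E2F1 to E2F8 and the pocket proteins RB1 and RBL1 were followed in chromatin-associated RNA (caRNA), the RNA that stays with the chromatin pellet after cytoplasm and nucleoplasm are removed. The 10 genes were taken by name, 10 of 58721 genes counted in the human tables, and their 10 mouse orthologues were taken by the same symbols from 54446 genes counted in the mouse tables. The human libraries came from K562, a human chronic myelogenous leukaemia line, in 4 groups of 3: cells with wild-type TET2 (TET2 WT) or with both TET2 alleles disrupted (TET2 KO), each labelled with a control hairpin (shControl) or a hairpin against MBD6 (shMBD6). The study's methods describe K562 hairpin lines made by lentivirus and kept in puromycin. They also describe siRNA transfection of K562, and a legend on chromatin accessibility names siRNA against MBD6. The hairpin is taken from the labels. The mouse libraries came from embryonic stem cells (mESCs) in 2 groups of 3, transfected with control siRNA (siControl) or siRNA against Nsun2 (siNsun2). TET2 oxidizes 5-methylcytosine, MBD6 is a methyl-CpG-binding-domain protein of a histone H2A deubiquitinase complex, and NSUN2 is an RNA cytosine methyltransferase. Which wild-type K562 stock was sequenced, and whether the TET2 KO cells descend from a single clone, is not given in the sources used here, so genotype and cell history cannot be told apart.

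E2F proteins bind DNA, most of them as dimers with a DP partner, and set the transcription of genes for DNA replication and entry into S phase. E2F1, E2F2 and E2F3 are the activators. E2F4 and E2F5 repress in quiescent cells together with the pocket proteins RBL1 (p107) and RBL2 (p130), E2F6 represses as part of a Polycomb complex (PRC1.6), and E2F7 and E2F8 are atypical repressors that bind DNA without a DP partner. RB1, the retinoblastoma tumour suppressor, binds the activators and holds them inactive until cyclin-dependent kinases phosphorylate it. RNA abundance does not report that phosphorylation.

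The labels were checked first. In TET2 WT cells MBD6 was 43.3, 42.7 and 38.6 CPM (counts scaled to library size) with shControl and 31.0, 25.7 and 27.3 CPM with shMBD6, so the groups did not overlap and MBD6 fell by 0.57 on the log2 scale. In TET2 KO cells MBD6 was 30.6, 30.8 and 29.4 CPM in the libraries labelled shControl and 30.6, 38.4 and 34.2 CPM in those labelled shMBD6. That goes against the label (log2 change 0.19, not past the threshold). Against TET2 WT libraries of the same label, MBD6 in TET2 KO was lower with shControl (log2 change -0.46) and higher with shMBD6 (0.30). Both changes passed the test. The 6 TET2 KO libraries are therefore named by their labels throughout. Each direction drawn from those labels, between hairpins or between genotypes, carries this limit. TET2 caRNA was 127 to 131 CPM in TET2 KO libraries labelled shControl and 118 to 124 CPM in TET2 WT shControl libraries. In TET2 KO libraries labelled shMBD6 it was 91.6 to 101 CPM, lower than with the shControl label (log2 change -0.44, edgeR adjusted p = 7.24e-11). Counts over a whole gene do not test a small coding disruption. Nsun2 was 126 to 133 CPM with siControl and 98.8 to 106 CPM with siNsun2, a log2 fall that passed the test (log2 change -0.34). Of the 5519 mouse genes above 5 log2 CPM, 78.8% were lower too, with a median of -0.21. Tet2, which was not targeted, fell by 0.42, so the Nsun2 fall is a weak check of the label. Erythroid and K562 markers summed to 2420 to 2680 CPM in every K562 group, whereas 8 lymphoid markers summed to 2.70 to 7.69 CPM although the cells are labelled lymphoblast. The 8 mESC markers summed to 1740 to 1770 CPM with siControl and 1340 to 1370 CPM with siNsun2, and the 8 feeder fibroblast markers to 47.4 to 49.5 and 36.2 to 38.0 CPM. Sox2 was listed at 0 in all mESC libraries, as were HBE1 and HBG2 in all K562 libraries, and each shares its strand and position with another gene, a place where these tables list nearly every gene at 0. Libraries held 52158403 to 102070223 gene counts. Because no spike-in was counted, every value is relative to the rest of the library, and in these bulk cultures fewer cells in a phase of the cell cycle and less RNA per cell cannot be told apart. Nothing in the labels says that the 3 libraries of a group came from separate cultures, so p-values measure the spread between these samples, which may be technical.

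Promoter sequence is shown for 4 members that changed in the same direction as each other in most K562 comparisons. RefSeq (GRCh38.p14) promoters, 250 bases before to 50 after a start, were searched on both strands for the words TTTCCCGC, TTTGGCGC, TTTCGCGC and TTTGCCGC, which are forms of the E2F binding motif. Of 35116 promoters in the table, 1164 (3.31%) held a word. Of 9 entries searched, for 8 members, 4 held a word, those of E2F1, E2F2 and RBL1 and 1 of 2 for E2F3. The RB1 entry lies 172706 bases inside its gene model, so it does not cover the 5′ end of the gene. E2F5 and E2F8 were not searched. Matches are in capitals, each sequence reads 5′ to 3′ on the strand of its gene, and positions count back from the start. The E2F1 promoter (chr20:33686336-33686635, minus strand) has TTTGGCGC at -20 and the reverse complement of TTTGCCGC at -33, E2F2 (chr1:23531184-23531483, minus strand) has TTTGGCGC at -42, and RBL1 (chr20:37095948-37096247, minus strand) has TTTCGCGC at -26 and TTTGGCGC at -16. E2F7 (chr12:77065520-77065819, minus strand) has none of these 4 words in its window.
E2F1 promoter: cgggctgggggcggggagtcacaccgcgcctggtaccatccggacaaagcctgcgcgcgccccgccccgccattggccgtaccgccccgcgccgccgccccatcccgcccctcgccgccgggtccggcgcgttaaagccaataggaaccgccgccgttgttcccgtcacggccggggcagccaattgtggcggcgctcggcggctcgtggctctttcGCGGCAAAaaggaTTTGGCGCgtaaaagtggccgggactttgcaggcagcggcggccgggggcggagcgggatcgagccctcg
E2F2 promoter: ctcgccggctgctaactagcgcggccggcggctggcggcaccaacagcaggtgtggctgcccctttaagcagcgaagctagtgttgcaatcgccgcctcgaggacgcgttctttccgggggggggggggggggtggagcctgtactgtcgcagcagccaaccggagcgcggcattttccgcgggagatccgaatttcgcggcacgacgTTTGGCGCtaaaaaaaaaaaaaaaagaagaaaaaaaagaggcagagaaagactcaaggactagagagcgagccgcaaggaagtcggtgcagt
RBL1 promoter: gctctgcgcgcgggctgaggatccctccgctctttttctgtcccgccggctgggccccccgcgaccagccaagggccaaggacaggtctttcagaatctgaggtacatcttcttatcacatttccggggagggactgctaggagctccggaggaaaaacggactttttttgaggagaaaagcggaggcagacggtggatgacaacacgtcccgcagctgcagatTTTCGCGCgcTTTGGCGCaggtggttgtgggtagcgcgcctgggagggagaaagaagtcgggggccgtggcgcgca
E2F7 promoter: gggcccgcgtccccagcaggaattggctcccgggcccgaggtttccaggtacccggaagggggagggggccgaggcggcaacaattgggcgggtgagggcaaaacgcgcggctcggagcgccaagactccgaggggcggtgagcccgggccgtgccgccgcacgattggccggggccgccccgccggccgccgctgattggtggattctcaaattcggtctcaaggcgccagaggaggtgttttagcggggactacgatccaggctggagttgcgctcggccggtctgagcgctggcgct
A match describes the letters and is not a measured binding site. These starts lie at the 5′ end of the gene model in GENCODE for all 4 genes.

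Per kilobase of gene span, introns included, E2F3 and E2F4 stood at the top of the family in K562 cells. In TET2 WT shControl libraries the level was 6.54 ± 0.06 CPM per kb for E2F3 and 6.51 CPM per kb for E2F4, and their libraries overlapped. E2F8 followed at 4.00, E2F1 at 2.83, E2F2 at 2.46, E2F7 at 1.86, E2F6 at 1.78, RBL1 at 1.63, RB1 at 0.41 and E2F5 at 0.37 CPM per kb. In this order E2F3 and E2F4, and E2F7 and E2F6, did not differ beyond the spread of their libraries, while all other neighbours did. As a floor, 416 olfactory receptor genes, which these cells are not known to use, gave 0.08 CPM per kb in this group, so E2F5 and RB1 stood 4.52 and 4.93 times above it and E2F3 79.1 times. The RB1 gene model of the reference spans 295693 bases and reaches far past its main transcript of 178140 bases. Per kb of that transcript its level was 0.68 CPM per kb and it still ranked 9 of 10, while per kb of exons RBL1 ranked 2 and RB1 ranked 3 in that group. In TET2 KO libraries labelled shControl and in TET2 WT shMBD6 libraries E2F1 stood above E2F8, whereas E2F8 stood above E2F1 in TET2 WT shControl libraries and in those of TET2 KO with the shMBD6 label, and in each of the 4 groups these 2 genes' libraries did not overlap.

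In TET2 WT cells, shMBD6 went with lower caRNA of 9 of the 10 members and higher RB1. E2F8 fell by 0.92 and E2F7 by 0.56 on the log2 scale, and RB1 rose by 0.25. All 10 passed the test at an adjusted p under 0.05 (edgeR quasi-likelihood test, Benjamini-Hochberg over 26023 genes), where 42.5% of all genes did, 24.7% as lower and 17.7% as higher. Among the 5865 genes above 5 log2 CPM, the level of most members, 59.8% were lower. Of all called genes 41.8% were higher, and 71.7% were when libraries were scaled only on genes far above the olfactory level. The size of a change depended on how libraries were scaled, and the median of all genes, 0.10 here, moved up by 0.23 under that scaling. Relative to the median of all genes, E2F8 was lower by 1.02 and RB1 higher by 0.15. Under each of 4 scalings E2F2, E2F3, E2F7 and E2F8 were called lower and RB1 higher. E2F4, E2F5 and E2F6 were lower under all 4 but called under 1, 1 and 3 of them, and E2F1 and RBL1 changed sign.

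In shControl libraries, TET2 KO went with a fall of E2F8 by 0.98 and of E2F7 by 0.45 on the log2 scale, while E2F5 rose by 0.57 and RB1 by 0.41. Of 10 members 8 were called, 3 higher (E2F5, RB1 and RBL1) and 5 lower (E2F1, E2F2, E2F3, E2F7 and E2F8), where 45.8% of all genes were called, 23.5% higher and 22.3% lower. Of the 5865 genes above 5 log2 CPM, 43.6% were higher and 33.1% lower. RBL1 changed sign when libraries were scaled to total gene counts. That scaling moved the share of higher genes among all called from 51.4 to 35.3%. Under all 4 scalings E2F2, E2F3, E2F7 and E2F8 were called lower and E2F5 and RB1 higher. This comparison and the preceding one share the TET2 WT shControl libraries. The genotype comparison also rests on the TET2 KO label, which carries the limit given with the MBD6 values.

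Between the TET2 KO libraries labelled shMBD6 and those labelled shControl, the direction turned. E2F8 rose by 1.01, E2F1 by 0.48 and E2F7 by 0.29 on the log2 scale, and RB1 fell by 0.89. Of 10 members 8 were called, 6 higher and 2 lower (RB1 and E2F4), where 36.4% of all genes were called, 15.7% higher and 20.6% lower. Of the 5865 genes above 5 log2 CPM, 32.0% were higher and 38.8% lower. Scaling to total gene counts moved the share of higher genes among all called from 43.3 to 59.9%. E2F1, E2F2, E2F7 and E2F8 were called higher and RB1 lower under all 4 scalings. Among shMBD6 libraries, TET2 KO stood above TET2 WT for 8 members called higher and below it for RB1, where 58.6% of all genes were called, 30.1% higher and 28.5% lower. There E2F8 was higher by 0.95 and RB1 lower by 0.73. Of the 5865 genes above 5 log2 CPM, the level of most members, 63.9% were higher and 17.4% lower, with a median of 0.22. The limit of the TET2 KO labels holds for this genotype comparison too. Scaled on genes above background, the share of higher genes among all called moved from 51.4 to 30.6%, E2F3 changed sign and the other 8 kept their direction and call.

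The difference between the hairpin's change in TET2 KO and in TET2 WT was itself tested as an interaction. It passed for 9 of 10 members, 8 positive and RB1 negative, where 49.4% of all genes passed, 23.9% positive and 25.5% negative. Of the 5865 genes above 5 log2 CPM, the level of most members, 4648 passed. Of those 5865 genes, 49.1% passed as positive and 30.1% as negative, with a median of 0.14. E2F8 had the largest value of the family (log2 1.93, SE 0.08, adjusted p = 1.55e-19, edgeR), followed by RB1 (-1.14), E2F7 (0.85), E2F1 (0.71) and E2F2 (0.61), and these 5 passed in the same direction under all 4 scalings. Scaled on genes above background, 30.7% of all called values were positive against 48.4%. E2F4 did not pass (log2 0.03, 95% interval -0.17 to 0.22), and under that scaling it was -0.25.

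**Figure D1:**
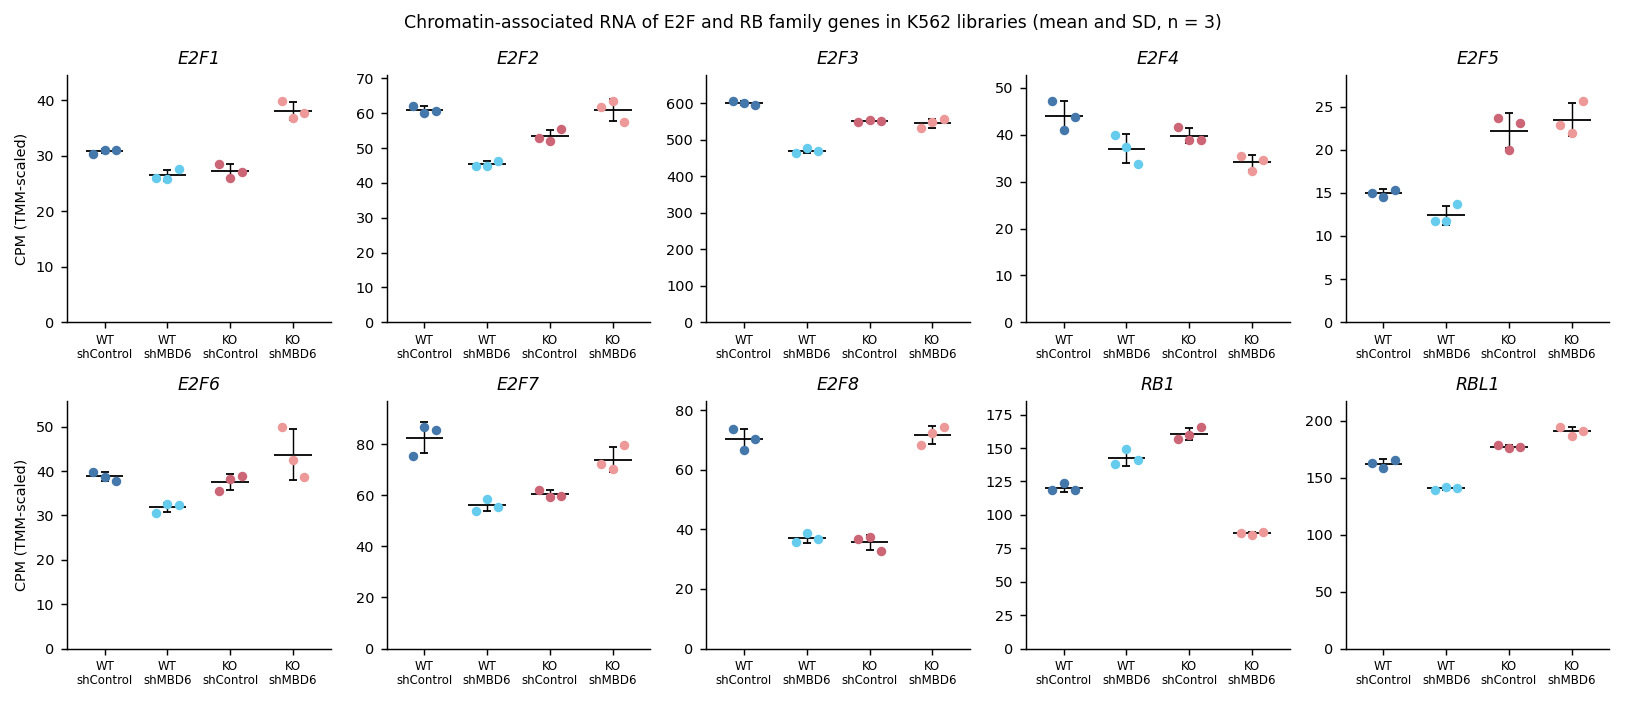
CPM of each E2F and RB family gene (y axis, scaled with TMM, starting at 0) in each K562 library by group, with mean and SD of 3 libraries; TET2 KO groups are shown as labelled. E2F8 sits between 66.7 and 74.3 CPM in 2 groups and between 32.8 and 38.7 in the other 2, and RB1 takes the reverse order.

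E2F1, an activator that can also induce apoptosis, was 30.8 ± 0.4 CPM in TET2 WT shControl and 26.4 ± 1.0 CPM with shMBD6. In TET2 KO it was 27.2 ± 1.3 CPM in libraries labelled shControl and 39.8, 36.7 and 37.6 CPM in those labelled shMBD6. The last group stood above the other 3 without overlap. The E2F1 fall between the genotypes in shControl libraries (0.18 on the log2 scale) did not pass without TET2 WT shControl replicate 2 or 3 or TET2 KO shControl replicate 2 or 3, when it was -0.15 to -0.18. E2F2, also an activator, went from 60.9 ± 1.1 to 45.4 ± 0.9 CPM with shMBD6 in TET2 WT and from 53.5 ± 1.7 to 60.9 ± 3.1 CPM between the TET2 KO labels (SD, n = 3). Its TET2 WT shControl and TET2 KO libraries labelled shMBD6 overlapped.

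E2F3 was the most abundant member per gene, at 606, 601 and 594 CPM in TET2 WT shControl, 464, 478 and 468 CPM with shMBD6, 548, 554 and 552 CPM in TET2 KO libraries labelled shControl and 532, 547 and 556 CPM in those labelled shMBD6. The TET2 WT shMBD6 libraries stood lowest, both TET2 KO groups lay between them and TET2 WT shControl without overlap with either, and the TET2 KO labels overlapped each other (log2 change -0.02, 95% interval -0.07 to 0.03). Its count is uncertain where E2F3-IT1, a transcript inside it on the same strand, overlaps. E2F3 took most of the family's counts, and E2F1 to E2F3 together held 73.4 ± 0.3% of all E2F counts in TET2 WT shControl, 75.7 ± 0.3% with shMBD6, 76.4 ± 0.4% in TET2 KO labelled shControl and 72.3 ± 0.6% in TET2 KO labelled shMBD6. These shares do not depend on library scaling. Per kb of span the share was 44.9 to 48.0%.

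Of the canonical repressors, E2F4 was 47.2, 41.0 and 43.8 CPM in TET2 WT shControl and 39.9, 37.4 and 33.7 CPM with shMBD6. In TET2 KO it was 41.6, 38.9 and 38.9 CPM with the shControl label and 35.5, 32.3 and 34.5 CPM with the shMBD6 label. E2F4 was thus lower with the shMBD6 label in both genotypes, by 0.25 and 0.22 on the log2 scale. It was the only member called in the same direction with shMBD6 in both genotypes. When libraries were scaled to total gene counts neither change passed. The TET2 WT change also missed the threshold with DESeq2 size factors (-0.14), scaled on genes above background (-0.02), without a filter (-0.14) and with DESeq2 (-0.14). Without TET2 KO shControl replicate 1 or shMBD6 replicate 2 the TET2 KO change was -0.19 and missed the threshold. Between genotypes in shControl libraries E2F4 did not pass (-0.14), but was called lower when scaled with DESeq2 size factors (-0.17) or to total gene counts (-0.32), with the stricter filter (-0.17), with only the groups compared (-0.16) and without TET2 WT shControl replicate 2 (-0.19). Between genotypes in shMBD6 libraries E2F4 did not pass (-0.12), but it was called lower under each of the other 3 scalings (-0.24 to -0.37), with DESeq2 (-0.24), with either other filter (-0.18 and -0.20), with only the groups compared (-0.19) and without TET2 WT shMBD6 replicate 3 (-0.18).

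E2F5, which can pair with p130 in resting cells, separated the genotypes. It was 15.0, 14.5 and 15.4 CPM in TET2 WT shControl and 11.8, 11.7 and 13.7 CPM with shMBD6, against 23.6, 19.9 and 23.0 CPM in TET2 KO labelled shControl and 22.9, 22.0 and 25.6 CPM labelled shMBD6. Every TET2 KO library stood above every TET2 WT library. The hairpin's change in TET2 WT (-0.27) did not pass without TET2 WT shControl replicate 3 or TET2 WT shMBD6 replicate 1 or 2 (-0.24 to -0.26), nor did the interaction (0.35) without any of these 3 libraries, TET2 KO shControl replicate 2 or TET2 KO shMBD6 replicate 3 (0.29 to 0.34). The gene lies on chromosome 8 (hg38, 85177154 to 85217158). Of other protein-coding genes past a low expression cut, 25 within 5 Mb had a median log2 change of 0.64 between TET2 KO and TET2 WT in shControl libraries. In shMBD6 libraries it was 0.73, and 409 such genes of the chromosome had medians of 0.34 and 0.42. The part of gene dosage in the E2F5 difference was not tested. Its counts were also close to the floor, since the olfactory level over its span would give 3.30 to 4.24 CPM.

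E2F6, the Polycomb-linked repressor, was 39.8, 38.8 and 37.9 CPM in TET2 WT shControl and 30.6, 32.5 and 32.4 CPM with shMBD6. In TET2 KO it was 35.4, 38.2 and 38.8 CPM labelled shControl and 49.9, 42.6 and 38.6 CPM labelled shMBD6, so the TET2 KO groups overlapped and the spread of the last was wide. The TET2 KO change was 0.22 on the log2 scale, and without TET2 KO shMBD6 replicate 1 or TET2 KO shControl replicate 1 it was 0.12 or 0.18 and did not pass.

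Of the atypical repressors, E2F8 had the widest range of group means in the family. E2F8 was 73.8, 66.7 and 70.4 CPM in TET2 WT shControl and 35.7, 38.7 and 36.8 CPM with shMBD6. It was 36.9, 37.5 and 32.8 CPM in TET2 KO libraries labelled shControl and 68.3, 72.5 and 74.3 CPM in those labelled shMBD6. The change was 1.9-fold down in TET2 WT and 2.01-fold up in TET2 KO, with SEs of 0.06 on the log2 scale in both, and groups overlapped only within the high pair and within the low pair. E2F7 had the same high and low pairs of groups with smaller steps, at 75.4, 86.5 and 85.7, then 53.9, 58.6 and 55.5 CPM in TET2 WT, and 62.1, 59.4 and 59.7, then 72.1, 70.2 and 79.6 CPM in TET2 KO. The neighbours of E2F8 within 5 Mb had medians of -0.16 in TET2 WT and -0.02 in TET2 KO for the same hairpin comparison.

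RB1 was 119, 124 and 119 CPM in TET2 WT shControl, 138, 150 and 141 CPM with shMBD6, 157, 160 and 166 CPM in TET2 KO labelled shControl and 86.3, 85.3 and 87.6 CPM labelled shMBD6. No library of any group fell in the range of another group. The olfactory level over the RB1 span, scaled to total gene counts, would give 24.4 to 31.3 CPM by group, so the floor is a sizeable share of these values. Between the TET2 KO labels (shControl, then shMBD6) that floor was 31.3 and 25.8 CPM, while RB1 was 160 ± 4 and 86.4 ± 1.1 CPM with TMM scaling. With both scaled to total gene counts, the floor was 0.106 and 0.087 and RB1 0.49 and 0.29 CPM per kb. RBL1, which binds E2F4 and E2F5, differed in direction from RB1 in 3 of the 4 pairwise comparisons. It was 163, 158 and 166 CPM in TET2 WT shControl, 139, 142 and 141 CPM with shMBD6, 179, 176 and 177 CPM in TET2 KO labelled shControl and 194, 186 and 191 CPM labelled shMBD6. The RB1 to RBL1 count ratio inside a library, free of scaling, was 0.74 ± 0.04, 1.02 ± 0.03, 0.91 ± 0.03 and 0.45 ± 0.01 in these 4 groups (SD, n = 3). The RBL1 change between the TET2 KO labels, 0.10, did not pass without TET2 KO shControl replicate 2. Both genes share their strand with a small transcript inside them.

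Because E2F8 and RB1 led in opposite directions, their ratio was read inside each library. This ratio was chosen after their values were seen, and it is a description with no test. It was 0.58 ± 0.04 E2F8 counts per RB1 count in TET2 WT shControl, 0.26 ± 0.001 with shMBD6, 0.22 ± 0.02 in TET2 KO labelled shControl and 0.83 ± 0.03 labelled shMBD6. In mESCs it was 0.26 ± 0.02 with siControl and 0.18 ± 0.01 with siNsun2.

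**Figure D2:**
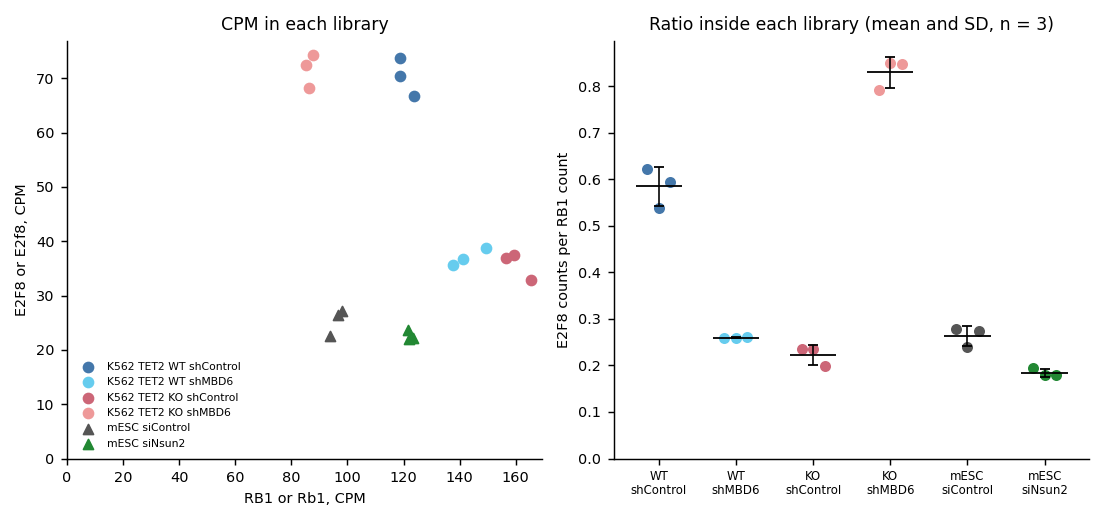
Left, CPM of E2F8 against RB1 in each library, circles for K562 and triangles for mESC (E2f8, Rb1); right, E2F8 counts per RB1 count in each library with mean and SD of 3. The libraries labelled TET2 KO shMBD6 have the highest ratio, near 0.83, and TET2 WT shMBD6 and TET2 KO shControl the lowest of K562, at 0.26 and 0.22.

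**Figure D3:**
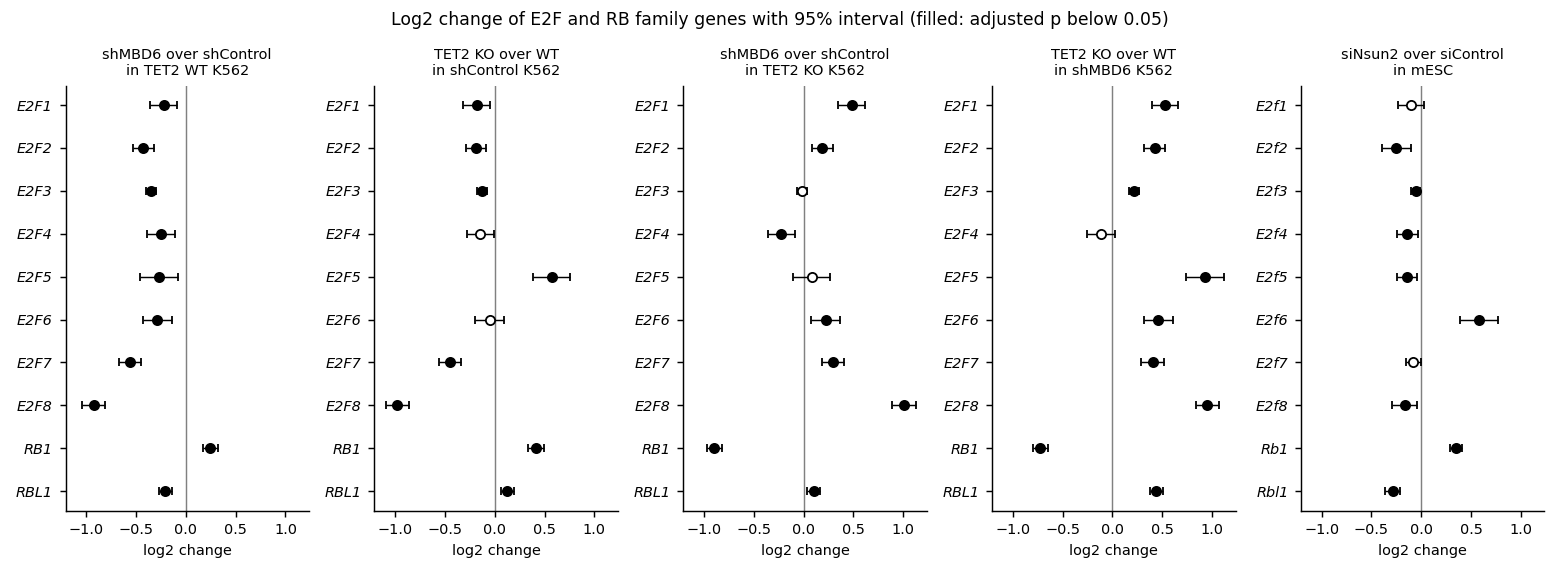
Log2 change of each member with its 95% interval (x axis) in the 4 pairwise K562 comparisons and the mESC comparison, filled where the adjusted p was under 0.05. E2F8 and RB1 lie on opposite sides of 0 in every panel, and E2f8 in mESC is the value of these that changes sign under other scalings.

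Genes whose caRNA was most like E2F8, the member with the widest range of group means, were found by Pearson's r of log2 CPM over 12 K562 libraries among 16265 protein-coding genes. They were CYP2R1, a vitamin D 25-hydroxylase (r = 0.990), ODF2, a centriole appendage protein (0.990), and STMN1, which destabilizes microtubules (0.986). The points share groups and libraries, and the value is a description. CYP2R1 lies on chromosome 11 within 5 Mb of E2F8. CYP2R1 was 104 ± 3 and 63.1 ± 1.4 CPM in TET2 WT and 61.8 ± 0.2 and 110 ± 3 CPM in TET2 KO, in the order shControl, shMBD6.

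Around the family, 65 human genes of 6 pathway lists were tested, and 45 were called with shMBD6 in TET2 WT, 44 of them lower. Over all genes 24.7% were lower, and among genes above 5 log2 CPM 59.8% were. Of 25 G1/S genes that E2F activates, 18 fell, and PCNA, the replication clamp, fell most, by 0.73. The list's median was -0.46, against 0.10 for all genes and -0.17 for those above 5 log2 CPM, and scaled on genes above background 13 fell and 3 rose. Over all lists that scaling gave 28 lower and 8 higher. Of 14 tested G1 cyclins, kinases and inhibitors, 10 were called, 9 lower, and CCND1, cyclin D1, fell by 1.01 while CDKN1A, the p21 inhibitor, rose by 0.64. FOXM1, a driver of G2/M genes, fell by 0.41 with 4 others of 6 tested MuvB genes. Of the E2F6 partners in PRC1.6, 9 of 10 fell, L3MBTL2 by 0.60. All 3 of TFDP1, TFDP2 and RBL2 fell, and TFDP1 fell by 0.25. Scaled on genes above background, 4 PRC1.6 genes fell, 3 MuvB genes fell and 1 rose, and of the last 3 genes 1 rose and the others did not pass. Of 7 tested germline genes that E2F6 represses, 0 passed with edgeR, 0 at an unadjusted p under 0.05 and 0 with DESeq2, and 5 values were positive.

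In shControl libraries TET2 KO stood lower for 16 and higher for 3 of the 25 G1/S genes, where 22.3% of all genes were lower and 23.5% higher, and 33.1% and 43.6% of those above 5 log2 CPM. The list's median was -0.28 against -0.05 for all genes. Scaled to total gene counts, 19 were lower and 1 higher. RRM2, a ribonucleotide reductase subunit, had the largest fall, 1.25, but on 19 to 89 counts per library, and POLA1 rose by 0.29. CCNE1, cyclin E1, fell by 1.05 and CDK6 rose by 0.74. LIN9 rose by 0.21 and MYBL2 fell by 0.30. MGA rose by 0.74, L3MBTL2 fell by 0.51 and RBL2 fell by 0.21. Scaled to total gene counts, 5 MuvB genes were lower, and 7 PRC1.6 genes were lower with 1 higher. Of the germline list, TUBA3C rose by 0.99, while MAEL was 5.83 to 6.75 CPM in TET2 WT and 0.02 to 0.40 CPM in TET2 KO.

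Between the TET2 KO labels, 18 of 25 G1/S genes rose and 1, POLA1, fell by 0.33 with shMBD6, and the list's median was 0.37 against -0.07 for all genes and -0.02 for genes above 5 log2 CPM. Of those genes above 5 log2 CPM, 32.0% were higher and 38.8% lower. Of 14 G1 cyclins, kinases and inhibitors 6 rose and 4 fell, of 6 MuvB genes 3 rose and 1 fell, and of 10 PRC1.6 genes 4 rose and 3 fell. Under the other 3 scalings 16 to 22 of the 25 G1/S genes rose. RRM2 rose by 1.24 on 19 to 92 counts per library, CDK4 by 0.77 and MYBL2 by 0.44, while CDKN2D fell by 2.33 on 0 to 66 counts and LIN52 fell by 0.18. RING1 fell by 0.82, CBX3 rose by 0.31 and RBL2 rose by 0.16. Of the germline list 0 of 7 passed with edgeR, 0 at an unadjusted p under 0.05 and 0 with DESeq2. Among shMBD6 libraries, TET2 KO stood higher than TET2 WT for 20 of 25 G1/S genes, and scaled on genes above background for 14, with 4 lower. Of genes above 5 log2 CPM 63.9% were higher there, with a median of 0.22 against 0.45 for the list. MCM7, a subunit of the replicative helicase, was higher by 1.02, SKP2 by 1.04, LIN9 by 0.73, MGA by 0.90, RBL2 by 0.19 and TUBA3C by 1.29. CDKN1A was lower by 2.95, with 12.1 to 12.9 CPM in TET2 WT and 0.78 to 2.24 CPM in TET2 KO, MAEL was lower by 5.02, RYBP by 0.15 and LIN52 by 0.14. Scaled on genes above background, RBL2 was not called higher.

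**Figure D4:**
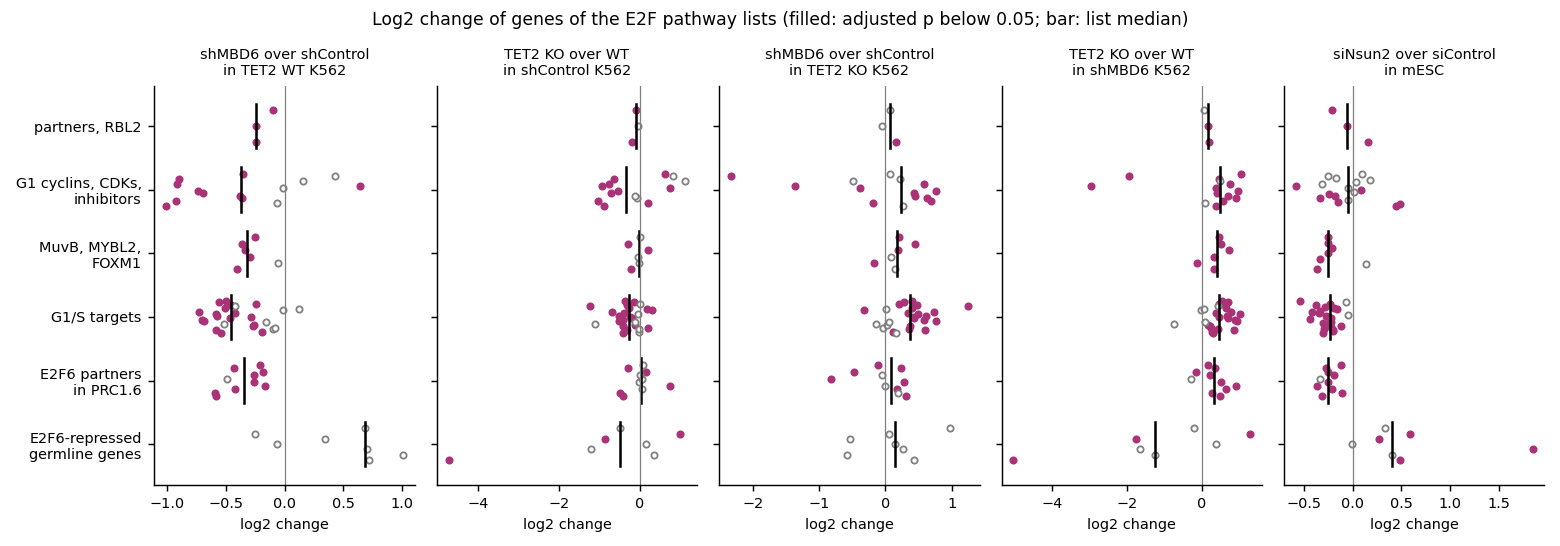
Log2 change of each gene (points, filled where the adjusted p was under 0.05) of 6 E2F pathway lists in the 4 pairwise K562 comparisons and the mESC comparison, with the list median as a bar. The x axes differ between panels. The G1/S median is -0.46 with shMBD6 in TET2 WT and 0.37 between the TET2 KO labels.

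In mESCs, siNsun2 went with higher E2f6 and Rb1 and with small falls of most other members. E2f6 was 9.38, 8.19 and 8.59 CPM with siControl and 12.8, 12.1 and 14.1 CPM with siNsun2, a rise of 0.58 on the log2 scale (SE 0.09, 1.49-fold). Rb1 was 98.1, 93.7 and 96.5 CPM with siControl and 122, 123 and 122 CPM with siNsun2, a rise of 0.35 (SE 0.03). Rbl1 fell by 0.29, from 78.4 ± 4.4 to 64.3 ± 2.4 CPM, and E2f2 fell by 0.25, from 20.1 ± 1.1 to 16.9 ± 0.9 CPM (SD, n = 3). None of these 4 genes had overlapping groups. Of 10 members 8 were called, 2 higher and 6 lower, where 50.2% of all 27603 genes passed, 25.8% as higher and 24.3% as lower. Among the 5519 genes above 5 log2 CPM, 78.8% were lower, with a median of -0.21.

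The 6 remaining members fell by less than that median or did not pass. E2f8 (-0.17), E2f4 (-0.14), E2f5 (-0.14) and E2f3 (-0.05) were called lower, while E2f1 (log2 -0.11, 95% interval -0.23 to 0.02) and E2f7 (-0.08, interval -0.16 to -0.01) did not pass after adjustment. Under the 4 scalings E2f6 and Rb1 were called higher and Rbl1 lower each time. E2f2 was lower under all 4 but called under 2, and was -0.07 and -0.06 when scaled to total gene counts or on genes above background. The values of E2f1, E2f3, E2f4, E2f5, E2f7 and E2f8 changed sign. Scaled on genes above background, the median of all genes moved up by 0.19, the share of higher genes among all called moved from 51.5 to 81.9%, and 4 members were called higher and 1 lower. Without siNsun2 replicate 2 only 4 members were called, E2f2, E2f6, Rb1 and Rbl1. E2f3 missed the threshold without siControl replicate 2 or siNsun2 replicate 1 as well (-0.05 to -0.06), E2f4 without siControl replicate 1 (-0.10), E2f5 without siNsun2 replicate 3 (-0.12) and E2f8, whose groups overlapped, without siControl replicate 1 or 3 or siNsun2 replicate 3 (-0.12 to -0.15). E2f7 passed without siNsun2 replicate 1 (-0.11). The background itself moved with siNsun2. The olfactory level was 0.026 ± 0.002 CPM per kb with siControl and 0.044 ± 0.003 with siNsun2, and reads outside genes were 21.1 to 21.8% and 31.1 to 32.1% of reads in or outside genes. Over the span of E2f6 that floor, scaled to total gene counts, was 0.75 and 1.26 CPM, and over that of Rb1 3.70 and 6.25 CPM. On that scale E2f6 was 0.28 and 0.48 CPM per kb and Rb1 0.63 and 0.92. In CPM the floor rose by less than either gene. Relative to its own siControl level, it rose about as much as E2f6 and by more than Rb1. The part of the floor in these changes was not tested. The E2f6 to Rbl1 ratio inside a library was 0.11 ± 0.01 with siControl and 0.20 ± 0.02 with siNsun2, and Rb1 to Rbl1 1.23 ± 0.09 and 1.91 ± 0.08, neither of which depends on scaling.

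**Figure D5:**
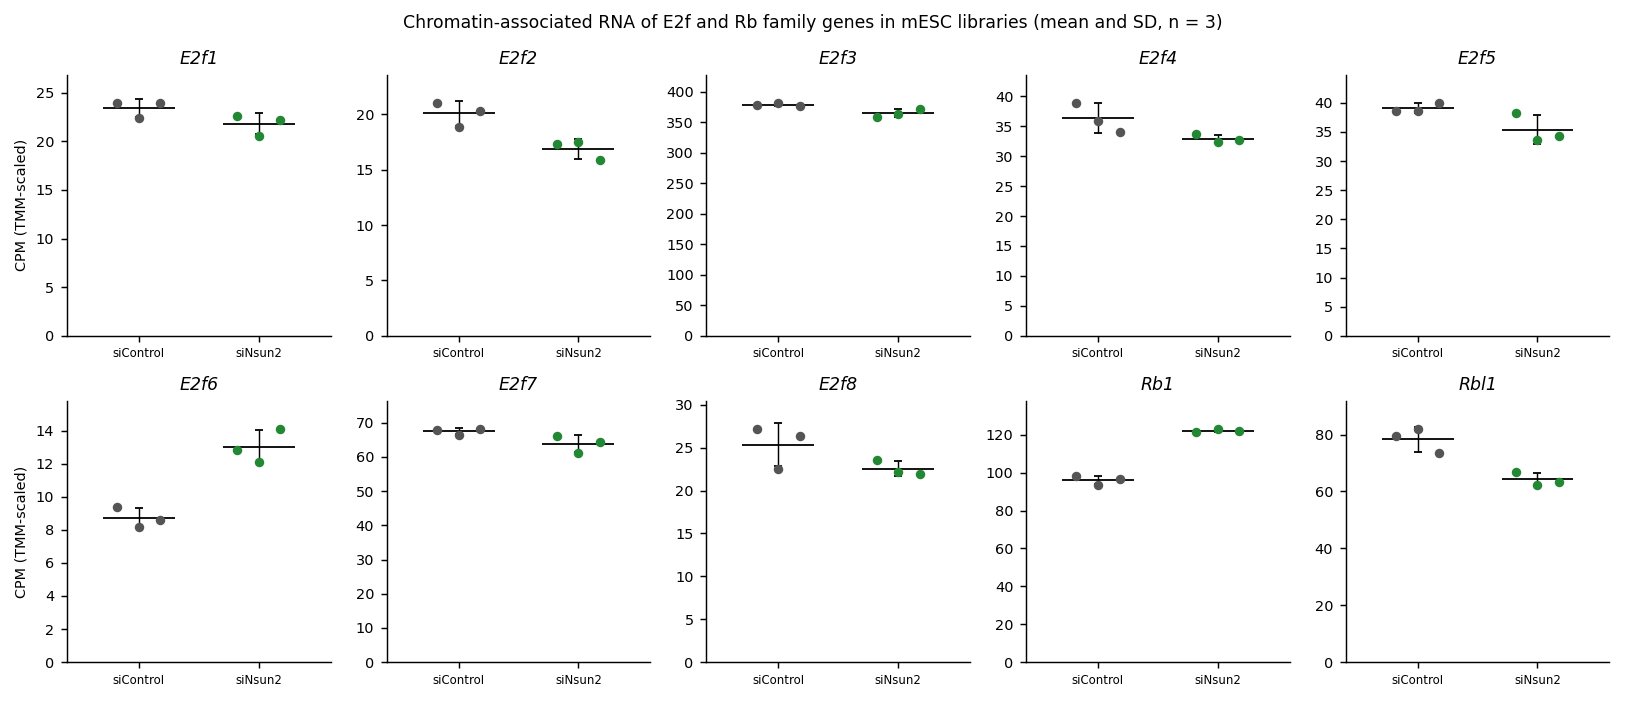
CPM of each E2f and Rb family gene (y axis, scaled with TMM, starting at 0) in the 3 mESC libraries with siControl and the 3 with siNsun2, with mean and SD. E2f6 and Rb1 are higher in every siNsun2 library than in any siControl library.

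By level per kb, mESCs held the family in much the same order as K562 cells at the top, with E2f3 at 4.77 and E2f4 at 4.71 CPM per kb with siControl, overlapping, then E2f1 at 2.24. E2f6 came last at 0.30 CPM per kb, 11.6 times the olfactory level. The activators held 70.5 ± 0.6% of E2f counts with siControl and 70.7 ± 1.0% with siNsun2. Tests between species were not made, since the tables were normalized separately.

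Of 68 mouse pathway genes tested, 52 were called with siNsun2, 44 lower and 8 higher, but 15 lower and 18 higher when scaled on genes above background. Of all genes 50.2% were called, and of those above 5 log2 CPM 78.8% were lower, and the median was -0.21 both over those genes and over the lists. Of 24 tested G1/S genes 22 fell, against 7 that fell and 3 that rose under that scaling, and Uhrf1, a factor that maintains DNA methylation, fell most, by 0.54. Foxm1 fell by 0.36, Cdkn1b, the p27 inhibitor, by 0.58, Tfdp2 by 0.21 and Mga, the scaffold of PRC1.6, by 0.36, while Ccnd2 rose by 0.48 and Rbl2 by 0.16. Scaled on genes above background, Tfdp2 did not pass as lower, and of 17 G1 cyclins, kinases and inhibitors 7 rose and 1 fell, against 3 and 5. Of 10 E2f6 partners 9 fell, or 4 under that scaling. Of 7 germline genes that E2F6 is known to repress, 4 rose, where 25.8% of all 27603 genes did. Under that scaling 5 rose, where 10546 of all genes did, and 2 rose with DESeq2. Smc1b, a meiotic cohesin subunit, was 7.02, 5.64 and 7.19 CPM with siControl and 24.8, 23.8 and 22.7 CPM with siNsun2, a rise of 1.84. The other 3, named after their values were seen, were Tuba3a (0.58), Mael (0.49) and Stk31 (0.27). The E2f6 rise and the rise of these genes stood in the same libraries, and how they relate was not tested. The olfactory level rose in these libraries too, and its part in the rise of these genes was not tested.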

How the data were processed

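Libraries of rRNA-depleted chromatin-associated RNA were prepared with a stranded SMARTer Pico kit. According to the labels' processing notes and the study's methods, the authors trimmed reads with Trimmomatic 0.39, aligned them to hg38 or mm10 with HISAT2 2.2.1 and counted them per gene with HTSeq 0.12.4. The deposited values are raw counts per gene, not normalized. Feature type and strand setting are not given in the sources used here. Among the counted genes, 98.69% of human and 99.91% of mouse genes nested in a same-strand gene were at 0, against 29.37% and 11.86% of those nested on the opposite strand, so counts were read as strand-aware and over whole gene spans. Symbols came from GENCODE v44 and vM21 by identifier. The counter's summary lines were left out of library sizes and tests, and reads outside genes were 15.6 to 18.9% of reads in or outside genes in K562 libraries and 21.1 to 32.1% in mESC libraries. The 1 mESC Pspc1 library was not used.

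Genes were filtered with filterByExpr (minimum count 10), scaled with TMM and tested with the quasi-likelihood F test of edgeR 4.0.16 in R 4.3.3, in 1 model of 4 K562 groups and 1 of 2 mESC groups, and p-values were adjusted over all genes tested (Benjamini-Hochberg, threshold 0.05). The code was checked on simulated counts. CPM uses TMM-scaled library sizes, except for the olfactory level, which was scaled to total gene counts. SEs are the absolute log2 change divided by the square root of F. Library pairs within groups differed by 3.92 to 14.9 times counting noise (chi-square per degree of freedom), so all were kept as separate samples. Every library held 52158403 gene counts or more, but whether counting or the spread between libraries limits a given gene was not tested. Alternatives were other scalings, filters, DESeq2 1.42.0, a replicate block, only the groups compared, a 1.5-fold minimum and each library left out.

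The members and pathway lists were chosen with earlier results of these data known. Named were all 10 members, the targeted genes, the called gene with the largest rise and the largest fall of each list in a comparison, and the 3 genes most like the member with the widest range of K562 group means.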

Additional observations from a re-analysis of the deposited data

Results flagged for a closer look

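The shMBD6 change differed between the TET2 KO and TET2 WT cells (interaction term, edgeR, adjusted p under the threshold) for 9 of 10 members, where 49.4% of all 26023 genes passed. This is a difference between groups under the same contrast. Of the 5865 genes above 5 log2 CPM, the level of most members, 4648 passed. The TET2 KO libraries are taken as labelled although MBD6 was not lower in those labelled shMBD6. The log2 difference, TET2 KO minus TET2 WT, was 1.93 for E2F8, 0.85 for E2F7, 0.71 for E2F1, 0.61 for E2F2, 0.51 for E2F6, 0.35 for E2F5, 0.34 for E2F3, 0.31 for RBL1 and -1.14 for RB1. The same test passed for pathway genes named in each list. It was positive for RRM2 (1.67), CCNE1 (1.62), CBX3 (0.90), MYBL2 (0.80) and RBL2 (0.40), and negative for CDKN2D (-2.76), POLA1 (-0.31) and RYBP (-0.30). Of these, RRM2 and CDKN2D rest on fewer than 100 counts in every library. Of the members, E2F3 (0.06), E2F5 (0.075), E2F6 (0.232) and RBL1 (0.033) did not pass when scaled on genes above background.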

How the results depend on the processing

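Across the 60 log2 changes of members (10 genes in 6 comparisons), the alternatives other than leaving out a library gave 383 values with the same direction and call, 33 that lost and 19 that gained the threshold, and 25 that changed sign. Scaling to total gene counts turned siNsun2 values of E2f1 (0.075), E2f3 (0.127), E2f4 (0.038), E2f5 (0.038), E2f7 (0.1) and E2f8 (0.014), RBL1 between genotypes in shControl libraries (-0.049) and E2F3 between the TET2 KO labels (0.11). Scaling on genes above background turned siNsun2 values of E2f1 (0.087), E2f3 (0.139), E2f4 (0.051), E2f5 (0.051), E2f7 (0.112) and E2f8 (0.026), E2F1 (0.009) and RBL1 (0.025) with shMBD6 in TET2 WT, E2F3 between genotypes in shMBD6 libraries (-0.038) and the E2F4 interaction (-0.252). The E2F4 interaction, not called, was -0.072 with DESeq2 size factors and with DESeq2, -0.03 without a filter and -0.032 with the stricter filter (50 counts in 3 libraries). The E2F3 value between the TET2 KO labels was 0.033 without a filter and 0.032 with only the groups compared, and E2f3 was 0.003 with the stricter filter. Leaving out 1 library kept direction and call for 386 of these values, cost 28 the call, gave it to 3 and turned 3 small ones (E2F3 between the TET2 KO labels, which ranged from -0.031 to 0.001, and the E2F4 interaction, -0.021 and -0.035). The cause of these changes was not tested.

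Of the counts of called members, siNsun2 fell from 8 to 5 under both of these scalings and to 4 with the stricter filter, and shMBD6 in TET2 WT from 10 to 5 when scaled on genes above background and 6 with DESeq2. Called pathway genes with siNsun2 fell from 52 to 33 on genes above background. With a 1.5-fold minimum, members called were 0 with siNsun2, 1 with shMBD6 in TET2 WT, 1 for TET2 KO in shControl libraries, 2 between the TET2 KO labels, 3 for TET2 KO in shMBD6 libraries and 5 in the interaction, and pathway genes 1, 12, 14, 11, 23 and 31 in that order. Leaving out 1 library gave 4 to 8, 9 to 10, 7 to 8, 6 to 8, 9 to 10 and 8 to 9 members, and 47 to 51, 43 to 46, 38 to 40, 36 to 42, 50 to 53 and 46 to 53 pathway genes. The share of E2F counts held by E2F1 to E2F3 per kb of span was 44.9, 46.9, 48.0 and 47.0% in the K562 groups and 44.7 and 45.0% in mESC with siControl and siNsun2, and leaving out a library moved no group's share by more than its SD. With the replicate block, members called were 8, 10, 9, 8, 9 and 9, and only E2F4 between genotypes in shControl libraries gained a call (-0.143). Same-numbered libraries correlated at -0.03 to 0.21 in K562 and -0.04 to 0.03 in mESC, so the numbers are not shown to pair them. Levels per kb of the main transcript were added after seeing the data. Every library held 52158403 or more gene counts, but RRM2 and CDKN2D rest on few counts. Whether counting, the libraries' spread or the floor limits a given gene was not tested.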
